A study of Homo sapiens with 12 samples.

Results

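The miR-200 family was followed in A549 cells, an established human lung adenocarcinoma line of alveolar epithelial origin, during treatment with TGF-β. Its 7 measured members were hsa-miR-200b-3p, hsa-miR-200a-3p, hsa-miR-429, hsa-miR-200a-5p, and hsa-miR-200b-5p, which derive from chromosome 1, and hsa-miR-200c-3p and hsa-miR-141-3p, which derive from chromosome 12. They were chosen by name, are 7 of the 2588 mature miRNAs in the count table, and were each found on 1 row. A count was present for 1417 mature miRNAs, and 491 had enough reads for a test of differential expression. These 491 included 6 of the 7 members; miR-200b-5p did not reach the minimum. The mature strands of the 5 precursors that are not members, miR-200c-5p and miR-141-5p, were read alongside them.

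Small RNA was collected before treatment (0 h) and after 24 and 96 h of TGF-β, in a design meant to induce epithelial-to-mesenchymal transition (EMT). The study grew the cells in serum-free medium for a day before adding TGF-β, and no untreated library of 24 or 96 h was analysed here, so that TGF-β and time in culture cannot be told apart. Each time point had 2 libraries, and each library was sequenced in 2 runs that the table adds up, giving 6 values per miRNA from 12 runs. Nothing in the labels says whether the 2 libraries came from separate cultures, so p-values measure the spread between these libraries, which may be technical.

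miR-200 miRNAs keep epithelial cells epithelial. They repress ZEB1 and ZEB2, transcription factors that shut down E-cadherin, and the ZEB factors in turn bind E-boxes in the promoters of the miR-200 genes and repress them, a double-negative feedback loop. TGF-β raises SNAIL and ZEB factors in many epithelial cells, and a fall of the miR-200 family is a widely used mark of EMT. The study found little expression of SNAIL and ZEB factors in A549 cells. Its authors speculated that the loop of these factors with miR-200c does not operate there. In each hairpin the 3p strand is the main product of the family, and the 5p strand is the partner strand.

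The family is divided both by where its members are encoded and by the seed, bases 2 to 8 of the mature miRNA, which sets most of its targets. In GRCh37, the build in the submitters' processing notes, MIR200B (chr1:1102484-1102578), MIR200A (chr1:1103243-1103332), and MIR429 (chr1:1104385-1104467) lie within 1984 bases on the plus strand and overlap no other annotated gene. MIR200C (chr12:7072862-7072929) and MIR141 (chr12:7073260-7073354) lie within 493 bases, also on the plus strand, and are intronic in MIR200CHG, a lncRNA. The mature sequences of the 7 members, from RefSeq (GRCh38.p14), show how the seed crosses the loci. Seeds are in capitals.
hsa-miR-200b-3p: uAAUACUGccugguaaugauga
hsa-miR-429: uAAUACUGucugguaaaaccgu
hsa-miR-200c-3p: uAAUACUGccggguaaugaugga
hsa-miR-200a-3p: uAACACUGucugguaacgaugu
hsa-miR-141-3p: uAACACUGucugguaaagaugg
hsa-miR-200a-5p: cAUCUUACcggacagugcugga
hsa-miR-200b-5p: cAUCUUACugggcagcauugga

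In RefSeq's GRCh38.p14 these strands occupy chr1:1167160-1167181 (miR-200b-3p), chr1:1169055-1169076 (miR-429), chr12:6963742-6963764 (miR-200c-3p), chr1:1167916-1167937 (miR-200a-3p), chr12:6964155-6964176 (miR-141-3p), chr1:1167878-1167899 (miR-200a-5p), and chr1:1167124-1167145 (miR-200b-5p), all on the plus strand. miR-200b-3p, miR-429, and miR-200c-3p share the seed AAUACUG, and miR-200a-3p and miR-141-3p share AACACUG. The difference between these seeds is U4C, counted from 1 at the 5′ end of miR-200b-3p, so each locus encodes both seeds. Among 2370 human mature sequences in RefSeq, AAUACUG was found in 3, AACACUG in 2, and the seed AUCUUAC of the 5p strands in 2, in each case in members of the family alone. Members from different loci can be near-identical: miR-200b-3p and miR-200c-3p differ by U11G and A22G over the first 22 positions, and miR-200a-3p and miR-141-3p by C17A and U22G. The mismatch setting of the authors' read assignment is not given in the sources used here, so how reads with sequencing errors were divided within these pairs is uncertain.

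1 hairpin from each locus shows where the counted strands lie. The annotated 5p and 3p strands are in capitals.
MIR200B: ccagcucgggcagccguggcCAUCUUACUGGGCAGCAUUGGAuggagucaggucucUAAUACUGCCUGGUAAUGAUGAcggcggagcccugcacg
MIR200C: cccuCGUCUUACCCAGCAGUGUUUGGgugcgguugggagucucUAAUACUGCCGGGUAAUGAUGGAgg

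The family was a small part of A549 small RNA. The libraries held 2335185 to 5971197 reads, the 7 members together had 343 to 1113 of them (0.0147% to 0.0196%), and miR-21-5p alone took 52.4% to 65.5%. Levels below are in CPM after TMM normalization, which scales the libraries on the bulk of the miRNAs instead of the total. TMM factors ran from 0.738 and 0.791 at 96 h to 1.17 and 1.36 at 0 h. Ligation of adapters differs between small RNAs, so the order of members within a library is a description of reads and not of molecules.

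miR-200b-3p was the member with the most reads. It had 123 and 144 reads before treatment, 182 and 289 after 24 h, and 650 and 442 after 96 h. These are 45.1 and 43.0 CPM, 67.7 and 88.4 CPM, and 147 and 120 CPM, so that the time points did not overlap and each later one was higher. Lack of overlap between 2 time points was common. Of all 491 tested miRNAs, 57.8% did not overlap at 24 h versus 0 h and 71.7% at 96 h versus 0 h. At 96 h versus 24 h the share was 61.9%. The mean level was 44.0 ± 1.48 CPM (SD, n = 2 libraries) before treatment, 78.1 ± 14.6 after 24 h, and 134 ± 19.5 after 96 h. miR-200b-3p rose at 96 h versus 0 h, the only member called (log2-fold change 1.60, standard error 0.20, edgeR-adjusted p = 0.000257); with libraries scaled to total counts it was 0.87 and not called. Here and below, an edgeR-adjusted p comes from edgeR's quasi-likelihood F-test, adjusted over the 491 miRNAs by the method of Benjamini and Hochberg. To be called, a miRNA had to have such a p under 0.05 and to differ by more than 1 on the log2 scale, the thresholds of the study.

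The intermediate steps of miR-200b-3p passed the adjusted p but not the fold threshold. The log2-fold change was 0.83 (95% interval 0.38 to 1.28, edgeR-adjusted p = 0.0374) at 24 h versus 0 h, and 0.77 (0.34 to 1.20, edgeR-adjusted p = 0.0275) at 96 h versus 24 h. Both libraries of the later time point were above both of the earlier one in each case. Among all mature miRNAs in a library, miR-200b-3p ranked between 203 and 135.

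miR-200a-3p, encoded next to miR-200b-3p and carrying the other seed, overlapped with it at 0 h. It had 101 and 150 reads before treatment, 157 and 215 after 24 h, and 284 and 292 after 96 h, or 37.0 and 44.8 CPM, 58.4 and 65.8 CPM, and 64.4 and 79.2 CPM. Both 24 h and both 96 h libraries were above both 0 h libraries, while 24 and 96 h overlapped. The log2-fold change at 96 h was 0.81 (95% interval 0.36 to 1.25, edgeR-adjusted p = 0.00947), which passed the adjusted p and not the fold threshold. It was 0.69 with an edgeR-adjusted p of 0.0753 without 96 h replicate 2. At 24 h versus 0 h it was 0.60 (0.15 to 1.05, edgeR-adjusted p = 0.0967), and at 96 h versus 24 h 0.21 (−0.23 to 0.64, edgeR-adjusted p = 0.492). The size of the rise at 96 h versus 0 h depended on the scaling. It was 0.075 with libraries scaled to total counts and 0.45 with miR-21-5p left out of the totals.

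miR-429, the third miRNA of the chromosome 1 cluster, has the seed of miR-200b-3p. It had 30 and 46 reads before treatment, 29 and 29 after 24 h, and 56 and 59 after 96 h, or 11.0 and 13.7 CPM, 10.8 and 8.87 CPM, and 12.7 and 16.0 CPM. The 0 and 96 h libraries overlapped, and both 24 h libraries were below all others. No comparison passed the test: the log2-fold change was −0.34 (95% interval −1.04 to 0.35, edgeR-adjusted p = 0.509) at 24 h versus 0 h, 0.20 (−0.45 to 0.85, edgeR-adjusted p = 0.596) at 96 h versus 0 h, and 0.55 (−0.12 to 1.22, edgeR-adjusted p = 0.260) at 96 h versus 24 h.

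miR-200c-3p, from chromosome 12, had 61 and 46 reads before treatment, 35 and 50 after 24 h, and 75 and 66 after 96 h. The levels were 22.3 and 13.7 CPM, 13.0 and 15.3 CPM, and 17.0 and 17.9 CPM. The 2 libraries at 0 h were farther apart than any others of this miRNA and enclosed both 96 h libraries. The log2-fold change was −0.33 (95% interval −0.997 to 0.34, edgeR-adjusted p = 0.506) at 24 h and −0.03 (−0.67 to 0.60, edgeR-adjusted p = 0.925) at 96 h versus 0 h. It was 0.30 (−0.36 to 0.95, edgeR-adjusted p = 0.513) at 96 h versus 24 h. The sign at 96 h depended on 1 library: −0.35 without 0 h replicate 2 and 0.39 without 0 h replicate 1.

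miR-141-3p, its neighbour on chromosome 12, was close to the detection limit, with 9 and 13 reads before treatment, 6 and 5 after 24 h, and 5 and 8 after 96 h. The levels were 3.30 and 3.88 CPM, 2.23 and 1.53 CPM, and 1.13 and 2.17 CPM, with both 0 h libraries above the 4 later ones. The log2-fold change at 96 h versus 0 h was −1.14, but its 95% interval ran from −2.46 to 0.18 and it was not called (edgeR-adjusted p = 0.141). At 24 h versus 0 h it was −0.94 (−2.31 to 0.42, edgeR-adjusted p = 0.346). At this depth the intervals include 0 as well as values below −2.

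The 5p strands were lower than their 3p strands in every library. miR-200a-5p had 19 and 17 reads before treatment, 18 and 31 after 24 h, and 41 and 40 after 96 h, or 6.96 and 5.07 CPM, 6.70 and 9.48 CPM, and 9.30 and 10.8 CPM. Both 96 h libraries were above both 0 h libraries, and 24 h overlapped with each. The log2-fold change at 96 h versus 0 h was 0.75 (95% interval −0.06 to 1.56, edgeR-adjusted p = 0.113). At 24 h versus 0 h it was 0.45 (−0.40 to 1.30, edgeR-adjusted p = 0.467), and at 96 h versus 24 h 0.30 (−0.48 to 1.08, edgeR-adjusted p = 0.582).

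miR-200b-5p had 0 and 2 reads before treatment, 1 and 1 after 24 h, and 2 and 6 after 96 h, and was not tested. The count of 0 allows a level of up to 1.28 CPM of all reads, above 5 of the 6 measured values, so that no difference was detectable at this depth. The partner strands of chromosome 12 were as scarce: miR-200c-5p had 0 or 1 read and miR-141-5p 0 to 4 reads in each library.

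**Figure D1:**
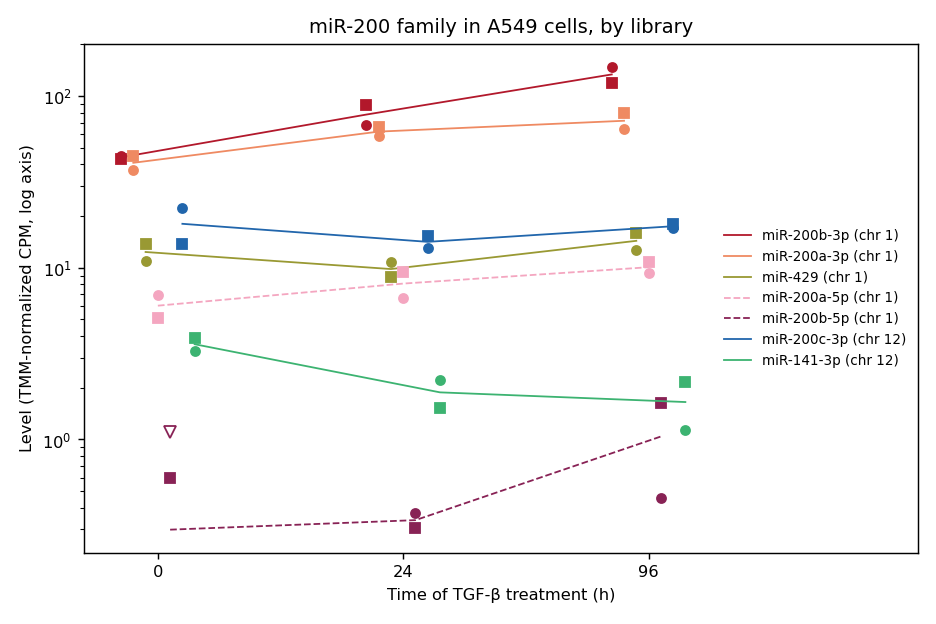
Level of each member in TMM-normalized CPM (log axis) at 0, 24, and 96 h of TGF-β, the hours spaced evenly. Circles are replicate 1, squares replicate 2, lines join the means (solid for 3p strands and miR-429, dashed for 5p strands), and the open triangle is the level that 3 reads would give in the library where miR-200b-5p had 0. miR-200b-3p runs from 43.0 to 147 CPM with no overlap between time points, while miR-200c-3p stays between 13.0 and 22.3 CPM.

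The mean levels had the same order at each time point, while the overlap between neighbours differed. At 0 h, miR-200b-3p and miR-200a-3p overlapped and stood above the others, followed by miR-200c-3p and miR-429, whose ranges met at 13.7 CPM, then miR-200a-5p, and then miR-141-3p. At 24 h both libraries of miR-200b-3p were above those of miR-200a-3p and those of miR-200c-3p above those of miR-429, whereas miR-429 and miR-200a-5p overlapped. At 96 h miR-200b-3p, miR-200a-3p, miR-200c-3p, miR-429, miR-200a-5p, and miR-141-3p followed each other without overlap, and miR-141-3p overlapped with miR-200b-5p.

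As a family, the members did not stand out from the rest of the miRNAs by the number called. Between 0 and 24 h, 0 of 6 tested members were called by edgeR's quasi-likelihood test (2 at an unadjusted p under 0.05, 0 called by DESeq2), against 3.46% of all tested miRNAs. By 96 h, 1 of 6 was called relative to 0 h (2 at an unadjusted p under 0.05, 1 by DESeq2), against 25.9% of all. Between 24 and 96 h, 0 of 6 were called (1 at an unadjusted p under 0.05, 0 by DESeq2), against 5.91%. The median log2-fold change of the 6 members was 0.06, 0.48, and 0.30 in these comparisons, beside −0.00, −0.10, and −0.05 for all tested miRNAs. No member was called lower in any comparison.

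Summed by locus, the chromosome 1 reads rose at 96 h and the chromosome 12 reads did not pass the test. Of the 3 miRNAs in the chromosome 1 sum, miR-200b-3p alone was called. The 3p strands of MIR200B, MIR200A, and MIR429 together had 254 and 340 reads before treatment, 368 and 533 after 24 h, and 990 and 793 after 96 h. Their level went from 97.3 ± 5.99 CPM (SD, n = 2 libraries) to 150 ± 18.5 and 220 ± 6.71 CPM. The log2-fold change at 96 h versus 0 h was 1.18 (95% interval 0.82 to 1.54, edgeR-adjusted p = 0.000445), and this sum was called. The call depended on the scaling: the value was 0.44 (edgeR-adjusted p = 0.0568) with libraries scaled to total counts and 0.82 (edgeR-adjusted p = 0.00354) with miR-21-5p left out of the totals. At 24 h versus 0 h it was 0.62 (0.26 to 0.99, edgeR-adjusted p = 0.0467) and at 96 h versus 24 h 0.55 (0.20 to 0.90, edgeR-adjusted p = 0.0476), both below the fold threshold.

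The 3p strands of MIR200C and MIR141 together had 70 and 59 reads before treatment, 41 and 55 after 24 h, and 80 and 74 after 96 h. Their level was 21.6 ± 5.68, 16.0 ± 1.12, and 19.1 ± 1.36 CPM (SD, n = 2 libraries each), with both 96 h libraries inside the range of the 0 h libraries. The log2-fold change was −0.42 (95% interval −1.02 to 0.18, edgeR-adjusted p = 0.340) at 24 h and −0.17 (−0.74 to 0.40, edgeR-adjusted p = 0.613) at 96 h versus 0 h, and 0.25 (−0.34 to 0.84, edgeR-adjusted p = 0.552) at 96 h versus 24 h. These intervals leave room for a modest change in either direction. This result also depended on the scaling. At 96 h versus 0 h the chromosome 12 sum was −0.88 with libraries scaled to total counts and −0.52 with miR-21-5p left out of the totals.

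**Figure D2:**
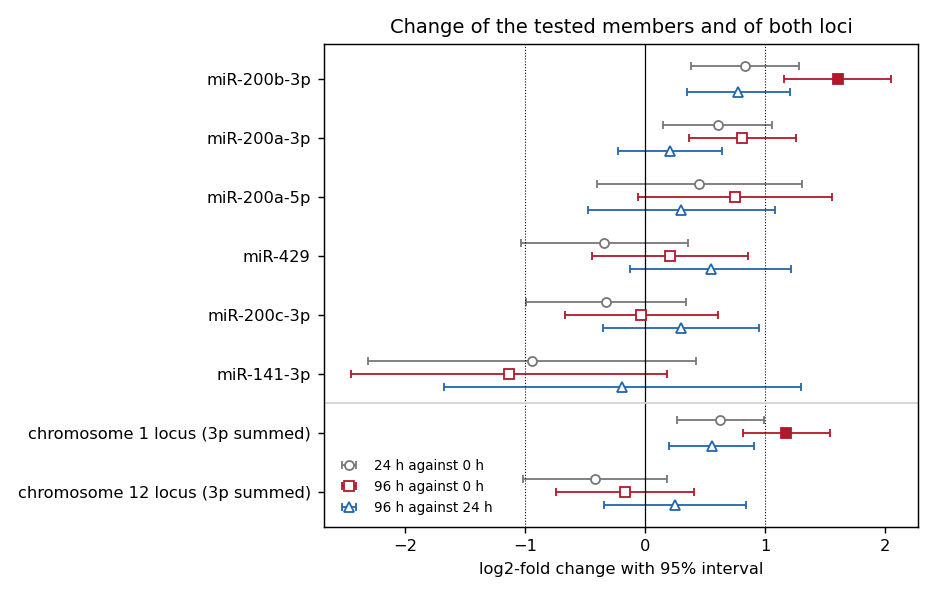
Log2-fold change of the 6 tested members and of the 3p sum of each locus in 3 comparisons, with 95% intervals from edgeR's fit; filled symbols are called, and dotted lines mark the fold threshold at −1 and 1. miR-200b-3p at 1.60 and the chromosome 1 sum at 1.18, both at 96 h versus 0 h, are the filled symbols, and each chromosome 12 interval includes 0.

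Whether the loci moved apart was tested on their ratio within each library, which no normalization between libraries affects. Reads of chromosome 1 exceeded those of chromosome 12 by 3.61 and 5.72 times before treatment, 8.88 and 9.61 times after 24 h, and 12.3 and 10.7 times after 96 h, with no overlap between time points. On the log2 scale the mean went from 2.18 ± 0.47 (SD, n = 2) to 3.21 ± 0.08 and 3.52 ± 0.15, a difference of 1.33 between 96 and 0 h. A two-sided exact permutation test of the slope over the time points gave p = 0.0222, the smallest that 90 arrangements of the libraries allow. Adjusted over the 7 ratios examined it was 0.104 (exact test), so this difference did not pass. With so few arrangements, no ratio could pass after adjustment unless several others also came close to the smallest p. The adjusted test therefore could not decide on this ratio alone. Leaving out 0 h replicate 1 gave a difference of 1.0003, and leaving out 0 h replicate 2 gave 1.67. As a share of the 3p reads of the family, chromosome 1 held 81.8% ± 4.82 before treatment, 90.3% ± 0.474 after 24 h, and 92.0% ± 0.749 after 96 h (SD, n = 2).

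The ratios between the 3 neighbours on chromosome 1 were read in the same way, and neither of the pairs below passed after adjustment. miR-200b-3p had 1.22 and 0.960 reads for each read of miR-200a-3p before treatment, 1.16 and 1.34 after 24 h, and 2.29 and 1.51 after 96 h. The log2 ratio was 0.78 higher at 96 h than at 0 h (exact permutation p = 0.0444, adjusted p = 0.104 over the 7 ratios), with both 96 h libraries above the 4 others. For each read of miR-200b-3p, miR-429 had 0.247 and 0.322 reads before treatment, 0.162 and 0.102 after 24 h, and 0.0869 and 0.134 after 96 h. Its log2 ratio at 96 h minus that at 0 h was −1.38 (exact permutation p = 0.0444, adjusted p = 0.104), and both 0 h libraries were above the 4 later ones.

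On chromosome 12, miR-200c-3p had 6.47 and 3.44 reads for each read of miR-141-3p before treatment, 5.46 and 9.18 after 24 h, and 13.7 and 7.82 after 96 h. The time points overlapped between 0 and 24 h and between 24 and 96 h, and the log2 ratio differed by 1.13 between 96 and 0 h (exact permutation p = 0.0889, adjusted p = 0.156). It rests on 5 to 13 reads of miR-141-3p in a library.

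Grouped by seed across the loci, miR-200b-3p, miR-429, and miR-200c-3p held 62.6% ± 4.88 of the 3p reads before treatment, 61.4% ± 1.72 after 24 h, and 69.2% ± 5.37 after 96 h (SD, n = 2), the rest being miR-200a-3p and miR-141-3p. In reads, the first seed exceeded the second by 1.94 and 1.45 times before treatment, 1.51 and 1.67 times after 24 h, and 2.70 and 1.89 times after 96 h. The time points overlapped, and the log2 ratio differed by 0.43 between 96 and 0 h (exact permutation p = 0.222, adjusted p = 0.311). Within the first seed group, miR-200b-3p went as a share of all 3p reads from 37.0% ± 1.32 at 0 h to 46.8% ± 3.29 and 55.9% ± 6.91, as miR-200c-3p went from 15.2% ± 5.16 to 8.53% ± 0.0382 and 7.31% ± 0.426.

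No shift in the balance of strands was detected. For each read of miR-200a-3p, miR-200a-5p had 0.192 and 0.116 reads before treatment, 0.117 and 0.146 after 24 h, and 0.146 and 0.138 after 96 h. The 2 libraries at 0 h enclosed all 4 others. The log2 ratio differed by −0.07 between 96 and 0 h (exact permutation p = 0.800, adjusted p = 0.933), with a range of −0.43 to 0.29 when each library was left out in turn. All 5p strands together made up 5.81% ± 1.15 of the reads of the 5 precursors before treatment, 5.10% ± 0.940 after 24 h, and 4.67% ± 0.661 after 96 h (SD, n = 2).

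For miR-200b the 5p strand was rarer still. miR-200b-5p had 0.00405 and 0.0173 reads for each read of miR-200b-3p before treatment, 0.00822 and 0.00518 after 24 h, and 0.00384 and 0.0147 after 96 h, after 0.5 was added to each count. The log2 ratio differed by −0.16 between 96 and 0 h (exact permutation p = 0.933, adjusted p = 0.933), and the libraries at 0 h lay at −7.95 and −5.85.

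**Figure D3:**
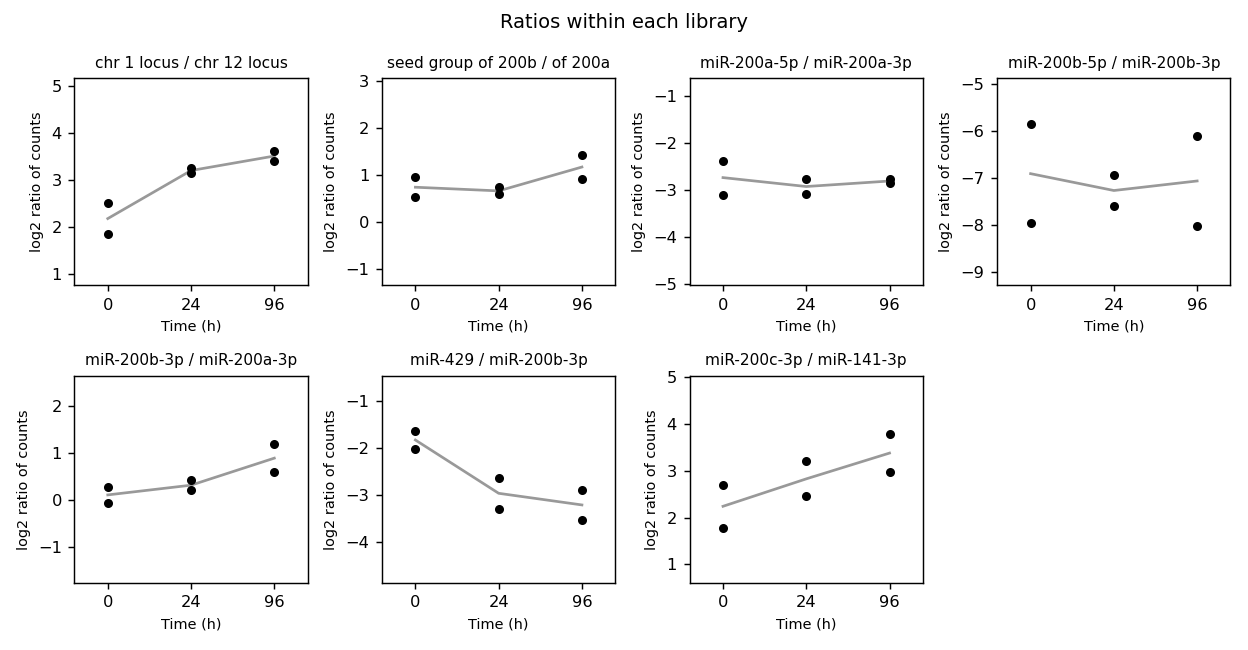
Log2 ratio of reads within each library for 7 pairs of members, seed groups, or loci; points are the 2 libraries of a time point, lines join their means, and each panel spans the same range of log2 units. The ratio of the loci separates all 3 time points, from 1.85 at its lowest at 0 h to 3.62 at its highest at 96 h, whereas both 5p to 3p ratios overlap throughout.

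The normalization set the size of these changes. miR-21-5p took 65.5% and 63.8% of the reads at 96 h against 56.1% and 52.4% at 0 h. Scaled to total counts instead, the 491 tested miRNAs moved from a median of −0.10 at 96 h to −0.83 on the log2 scale, and the value of miR-200b-3p from 1.60 to 0.87 (edgeR-adjusted p = 0.00502), below the fold threshold. miR-141-3p became −1.86 (edgeR-adjusted p = 0.0282), which would be called lower, so that the member called was a different one. miR-429 changed sign, to −0.53. miR-200a-3p came to 0.075, miR-200a-5p to 0.032, and miR-200c-3p to −0.75. With miR-21-5p left out of the totals the median was still −0.45, miR-200b-3p was 1.25 (edgeR-adjusted p = 0.00120) and called, and miR-141-3p was −1.49 (edgeR-adjusted p = 0.0625) and not called. Relative to the median, miR-200b-3p was 1.70 higher under both scalings and the difference of miR-141-3p from it was −1.04 and −1.03. That of the chromosome 1 sum was 1.27 under both. A change of scaling moves all miRNAs by nearly the same amount. These near-equal differences therefore follow from the arithmetic and are no check of the result. The ratios within libraries do not depend on this choice.

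**Figure D4:**
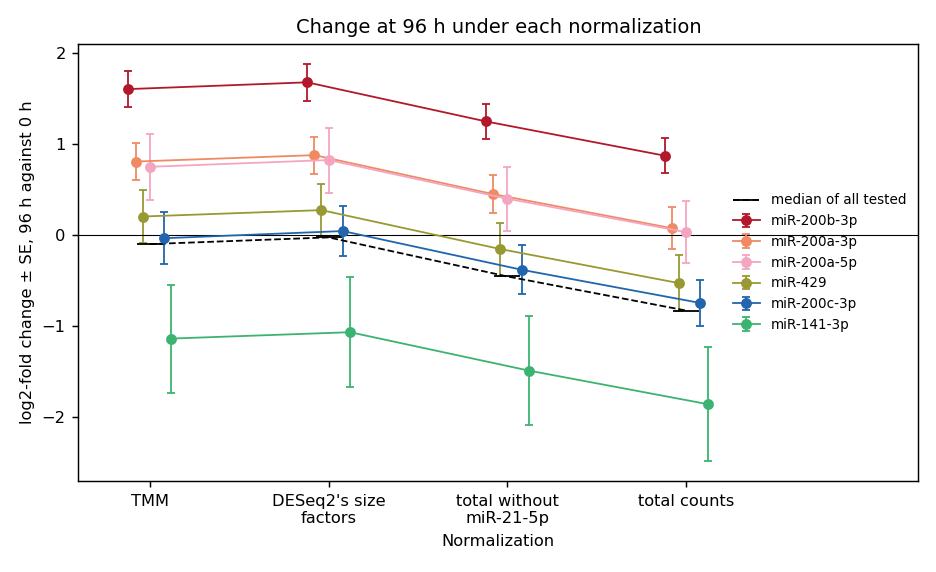
Log2-fold change at 96 h versus 0 h of the 6 tested members under 4 normalizations, with standard errors, and the median of all tested miRNAs as a dashed line. All members shift down together from TMM to total counts, miR-200b-3p from 1.60 to 0.87 and miR-141-3p from −1.14 to −1.86, while the order of the members changes little.

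Run dates, read here from the numbers that end the sample titles, were not balanced. All libraries share the earliest of these dates, taken as that of the first run. The second run of 0 h replicate 1 shared its date with both 96 h libraries, and that of 0 h replicate 2 with both 24 h libraries. Within the shared dates the 0 h group is 1 library, so values are given with no test. With 0 h replicate 1 alone, miR-200b-3p was higher at 96 h by 1.58 and the chromosome 1 sum by 1.24 on the log2 scale, and the chromosome 12 sum was −0.43. With 0 h replicate 2 alone, the values at 24 h were 0.90, 0.59, and −0.11.

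None of the other miRNAs linked to the epithelial state was called. Of a list of 16, 15 were tested and 0 were called by edgeR in any comparison; at 96 h versus 0 h, 7 had an unadjusted p under 0.05, 5 an adjusted p under 0.05, and DESeq2 called 0. Of all 491 miRNAs, 25.9% were called at 96 h and 274 had an unadjusted p under 0.05. The median log2-fold change of the list at 96 h was 0.15, beside −0.10 for all. For miR-203a-3p, a keratinocyte miRNA, the log2-fold change was 0.75 (standard error 0.32, edgeR-adjusted p = 0.0807) and for miR-183-5p, known from sensory epithelia, 0.66 (standard error 0.13, edgeR-adjusted p = 0.00297), both below the fold threshold. For miR-34a-5p, a p53 target that represses SNAIL, it was −0.73 (standard error 0.16, edgeR-adjusted p = 0.00618). miR-205-5p, which acts with the miR-200 family on ZEB1 and ZEB2, had 0 to 3 reads in each library.

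Of 12 miRNAs linked to TGF-β or the mesenchymal state, 11 were tested. By edgeR's quasi-likelihood test, 1 was called higher at 24 h versus 0 h, 2 at 96 h versus 0 h, and 2 at 96 h versus 24 h. In each comparison 0 were called lower. At 96 h versus 0 h, 10 had an edgeR p under 0.05 both before and after adjustment, in both directions, and DESeq2 called 4. Of all 491, 274 had an unadjusted p under 0.05 in that comparison. The shares called of all tested miRNAs were 3.46%, 25.9%, and 5.91%, so that the count of 2 of 11 at 96 h versus 0 h was no larger a share than over all. The median log2-fold change of the list at 96 h was 0.83, beside −0.10 for all. The 2 were miR-143-3p and miR-145-5p, a pair from 1 cluster that marks smooth muscle and fibroblasts. miR-143-3p rose from 17 and 15 reads at 0 h to 1801 and 1634 at 96 h (log2-fold change 6.32, standard error 0.22, edgeR-adjusted p = 2.8e-08), and miR-145-5p from 1 and 0 reads to 29 and 25. For miR-21-5p itself it was 0.97 (standard error 0.18, edgeR-adjusted p = 0.00209), under the fold threshold. The lowest value of the list was that of miR-221-3p, −0.99 (standard error 0.14, edgeR-adjusted p = 0.00046), also short of the fold threshold.

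Markers of other cells were read for the whole libraries. The summed level of 3 epithelial markers (miR-205-5p, miR-203a-3p, miR-375) was 31.9 and 33.7 CPM before treatment, 34.6 in each library after 24 h, and 36.3 and 31.2 CPM after 96 h. Most of this sum was miR-375, with means of 25.8, 23.5, and 22.7 CPM at these time points. The means of miR-203a-3p went the other way, 6.65, 10.5, and 11.1 CPM, and neither miRNA was called. The 5 fibroblast markers summed to 2.56 and 1.19 CPM before treatment, 1.49 and 5.51 after 24 h, and 10.9 and 9.22 after 96 h. Of these, 1 was tested and called higher at 96 h (miR-145-5p), and miR-214-3p was at 0 in every library. The 6 blood markers summed to 5.49 and 4.77 CPM at 0 h and 1.13 and 1.36 CPM at 96 h, with miR-223-3p and miR-150-5p at 0 in every library. None of the blood markers had enough reads for a test. Like miR-200b-3p, the summed fibroblast level was higher at 96 h than at 0 h, but its 0 and 24 h libraries overlapped. Most of its reads at 96 h were of miR-145-5p, 29 of 48 and 25 of 34. The part of the fibroblast markers in the miR-200b-3p result was not tested.

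Some miRNAs outside the family had profiles close to those of each locus. Likeness was Pearson's r over the 6 libraries with the mean centred log2 CPM of the tested members, among the 318 miRNAs that averaged 10 CPM or more, and is given as a description, since the highest of 318 values over 6 shared libraries is high by construction. For the 4 tested chromosome 1 members the closest were miR-485-3p (r = 0.988), miR-409-3p (0.987), miR-889-3p (0.985), miR-3195 (0.984), and miR-127-5p (0.984). Their log2-fold changes at 96 h versus 0 h ranged from 1.23 for miR-409-3p to 5.46 for miR-3195. For the 2 chromosome 12 members they were miR-93-3p (r = 0.955), miR-3615 (0.915), miR-99b-3p (0.907), miR-589-5p (0.894), and miR-25-3p (0.889), with log2-fold changes from −1.05 for miR-93-3p to −0.17 for miR-25-3p.

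The promoters of the host transcripts hold the E-box that ZEB and SNAIL factors are known to bind. The window from 250 bases before to 50 after the start of MIR200BHG, the host transcript RefSeq places upstream on chromosome 1, held CACCTG 2 times, at −102 and −58 from the start, and that of MIR200CHG held it 1 time, at −78. Both strands were searched (CACCTG or CAGGTG), and no other motif was. The 80 bases from −120 to −41 are shown because they hold every match, with the matches in capitals. They are chr1:1162757-1162836 and chr12:6963125-6963204 of GRCh38.p14 on the plus strand, from RefSeq.
MIR200BHG: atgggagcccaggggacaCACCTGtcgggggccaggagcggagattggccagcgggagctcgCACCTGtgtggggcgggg
MIR200CHG: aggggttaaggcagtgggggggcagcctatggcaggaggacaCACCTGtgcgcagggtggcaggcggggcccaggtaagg

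Of 35116 promoter windows of the same length, 20.6% held at least 1 match and 3.49% at least 2. A match describes these letters, and the small RNA counts measure neither binding nor transcription at these promoters.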

How the data were processed

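The authors made libraries of A549 small RNA with an Illumina kit and quantified the reads with miRDeep2. They deposited counts: unnormalized whole numbers for every pair of a mature miRNA and its precursor, in which the runs of a library were added up; the submitters' processing notes name hg19 and FastQC. A deposited table of normalized values was not used, since 2 of its columns carry the same name. For a mature miRNA with several precursors the entry with the highest total was kept.

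Counts of the 6 libraries were fitted with edgeR 4.0.16 in R 4.3.3 (TMM, filterByExpr with a minimum count of 10, quasi-likelihood test, time point as the only term) and adjusted by the Benjamini-Hochberg method over 491 miRNAs, which held nearly all reads. The standard error is the log2-fold change divided by the square root of F. For each locus, the 3p rows were replaced by their sum and the whole table was fitted again. Ratios within a library used a pseudocount of 0.5 and a two-sided exact permutation test over 90 arrangements of the libraries; 0 against 96 h alone cannot go below p = 0.333. Intervals are 95%; floors (3 counts) cover counting error only, as the reads carry no molecular identifiers. Depth was 2335185 to 5971197 reads per library, so that 1 read is 0.167 to 0.428 CPM of all reads. Replicates differed beyond sampling noise (chi-square divided by its degrees of freedom, 38.9 to 77.9), so none were counted as 1 library.

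Members, gene lists, and tests were chosen with earlier results of these data known. Named were the members, the other strands of their precursors, miR-21-5p for scale, at most 4 miRNAs of each list, markers, and the 5 closest profiles per locus. The test was run on simulated data with 200 changed miRNAs (log2 change 2, 96 h against 0 h, mean 469 tested). It recovered 97.0% of the changed miRNAs that passed the filter, and 1.23% of its calls were false. Alternatives were other normalizations, DESeq2 1.42.0, other filters, fewer libraries, a replicate block, thinned reads, sums over precursors, and another pseudocount. Promoter windows, hairpins, and mature sequences came from RefSeq tables (GRCh38.p14), in which 8 of 9 mature strands and 4 of 5 hairpins were matched; positions of the precursors came from the GRCh37 annotation. Figures were drawn with matplotlib 3.10.9.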

Additional observations from a re-analysis of the deposited data

Results flagged for a closer look

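For miR-200b-3p and for the summed 3p strands of chromosome 1, the change after 96 h differed from the change after 24 h, tested as the comparison of 96 h against 24 h. The difference was 0.77 on the log2 scale for miR-200b-3p (standard error 0.19, edgeR-adjusted p = 0.0275) and 0.55 for the chromosome 1 sum (standard error 0.16, edgeR-adjusted p = 0.0476). In TMM-normalized CPM, both 96 h libraries were above both 24 h libraries in each case. Both differences rest on TMM. In this comparison total counts lowered the median of all tested miRNAs, as given below, so the size of both differences depended on the scaling. The share of miR-21-5p, which moved with the time points, was 56.8% and 58.1% after 24 h of TGF-β, then 65.5% and 63.8% after 96 h, and its part in this result was not tested.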

How the results depend on the processing

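Of the results that answer a comparison, 195 values under the alternatives were counted as unchanged, and 5 were not. For a locus sum this meant the same direction and the same side of the threshold. For a ratio with 1 library left out, it meant a move smaller than the spread between libraries, whatever the sign. With 2 libraries per time point no such move could reach that spread, so these ratios counted as unchanged by construction. They are part of the 195 and do not show that a ratio is stable. Such ratios could change sign: miR-200a-5p to miR-200a-3p ran from −0.43 to 0.29, and miR-200b-5p to miR-200b-3p from −1.20 to 0.89. The count of called members at 96 h against 0 h was 1 both with TMM and with total counts, but with total counts miR-200b-3p (0.87) lost its call and miR-141-3p (−1.86, edgeR-adjusted p = 0.0282) gained one. At 96 h against 0 h the chromosome 1 sum fell below the fold threshold with total counts (0.44, edgeR-adjusted p = 0.0568) and with total counts without miR-21-5p (0.82, edgeR-adjusted p = 0.00354). At 96 h against 24 h the chromosome 12 sum was −0.19 with total counts, and leaving out 1 library gave 0 to 1 called members, the latter miR-200b-3p at 1.06 without 24 h replicate 2. At 96 h against 0 h the chromosome 12 sum ran from −0.43 to 0.14 when 1 library was left out, the highest without 0 h replicate 1. The cause of these changes was not tested.

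Values with no call changed sign as follows. miR-200c-3p at 96 h against 0 h was 0.044 with DESeq2's size factors, 0.041 with DESeq2's Wald test, 0.017 with no expression filter, 0.010 with the compared libraries alone, and −0.35 to 0.39 when 1 library was left out; at 24 h against 0 h the latter range was −0.64 to 0.088. miR-429 at 96 h was −0.53 with total counts and −0.15 without miR-21-5p in them. At 96 h against 24 h with total counts, miR-200a-3p was −0.23, miR-200c-3p −0.14, and miR-200a-5p −0.13; miR-141-3p ran from −0.61 to 0.28 when 1 library was left out. For miR-200b-3p at 96 h against 0 h, leaving out 1 library gave 1.47 to 1.79.

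The number of miRNAs called of all tested varied more. At 24 h against 0 h, 17 became 33 with total counts, 26 without miR-21-5p in them, and 4 to 36 when 1 library was left out, the lowest without 24 h replicate 2 (5 without 24 h replicate 1) and the highest without 0 h replicate 1. At 96 h against 0 h, 127 (62 higher) became 215 (23 higher) with total counts, and 39 were called higher without miR-21-5p in them. At 96 h against 24 h, 29 became 72 with total counts, 46 with no filter, 17 with a mean of at least 10 CPM, 44 with the compared libraries alone, and 9 to 46 when 1 library was left out. The median of all tested miRNAs at 24 h against 0 h was −0.30 with total counts and −0.19 without miR-21-5p in them, at 96 h against 0 h −0.83 and −0.45, and at 96 h against 24 h −0.49 and −0.22.

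Replicate numbers are shared by the time points. Deviations of equal numbers had no common sign (r = −0.30 for 0 and 24 h, 0.31 for 0 and 96 h, −0.18 for 24 and 96 h). The numbers were therefore not used as pairs in the main fit. With the replicate block, miR-200b-3p at 96 h against 0 h was 1.60 and 1 member was called, and 124 miRNAs were called in all; at 96 h against 24 h, 41 were called. With a mean of at least 10 CPM, miR-141-3p and miR-200a-5p have no value. Depth limits miR-141-3p and the 5p strands most.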
